A study of Mus musculus with 6 samples.

Results

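The genes described here are the matrix metalloproteinases (MMP), the ADAMTS proteases, the ADAMTS-like proteins and the tissue inhibitors of metalloproteinases (TIMP) of the neonatal mouse testis. They were chosen by symbol, and 46 of the 22320 genes in the table belong to them, namely 19 MMP, 18 ADAMTS, 5 ADAMTS-like and 4 TIMP genes. Whole testes were collected at postnatal day 1.5 from 2 groups of mice of mixed C57BL6/J and 129/SvEv background. Arid4bSCKO mice carried a null and a floxed Arid4b allele (Arid4b-/Flox) together with Amh-cre, and Control mice carried a wild-type and a floxed allele (Arid4b+/Flox) together with the same Amh-cre. The Amh promoter drives Cre in Sertoli cells, so deletion of the floxed allele is aimed at 1 cell type of an organ that was measured whole. The Control testes also hold 1 floxed allele exposed to Cre. The null allele of Arid4bSCKO mice is not limited to Sertoli cells, so by genotype the groups also differ in the other cells of the testis. Each group had 3 pools of 4 testes, each read as 1 library, and the labels do not say how far the pools of a group were independent, so every p-value below is set against the variation among these 6 pools.

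The extracellular matrix is cut mainly by zinc-dependent proteases. MMPs are made as inactive precursors and cleave collagens, gelatin and basement membrane proteins. ADAMTS proteases carry thrombospondin repeats and cleave proteoglycans, procollagens or other secreted proteins, and the ADAMTS-like proteins share those repeats but have no catalytic domain. TIMPs bind the active site of these enzymes and block it. In the fetal and neonatal testis such enzymes act around the cords, where Sertoli and peritubular cells lay down a shared basement membrane.

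The deposited values are group means of log2(normalized count + 1), and a difference is the Arid4bSCKO mean minus the Control mean on that scale, with its 95% interval from the deposited p-value. The reads behind each mean could be worked back, since a normalized count is a whole number of reads times the worth of 1 read in that library. One set of 6 read counts matched the deposited means, ratio of medians and p-value for all 46 members and for 85.8% of the 22320 genes. Libraries are called A, B and C (Arid4bSCKO) and D, E and F (Control), in order of the worth of 1 read, and these letters are not the replicate numbers of the labels. A gene is called where the limma moderated test, adjusted by the Benjamini-Hochberg method over 19095 genes, gave an adjusted p below 0.05. Values given without a library come from another fit, limma on the worked-back values of 16731 genes. A shift from the main value can thus hold a change of fit as well as the loss of the library. Positions of genes are those of the GENCODE annotation on mm10. Arid4b itself had 417, 356 and 462 normalized counts in A, B and C, against 1184, 1154 and 1170 in D, E and F, and was called lower (log2 difference -1.51, limma adjusted p = 2.23e-05). The first principal component, over 12493 genes with worked-back reads and with genes of low level left out, held 67.0% of the variance. On it library A, at -10.5, lay nearer the Control libraries than B at -26.7 and C at -35.6 did.

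Of the 42 members with a mean level of at least 1, 8 were called higher in Arid4bSCKO testes, namely Timp1, Adamts14, Adamtsl5, Mmp23, Adamts8, Mmp24, Mmp10 and Adamts1. Across all genes tested 7.37% were called higher. Mmp10 reached the minimum level only through its Arid4bSCKO reads, and at a minimum level of 3, which it does not reach, 7 of 38 members were called higher. Mmp2 and Mmp25 were called lower, 2 of 42 beside 6.46% of all genes. The other 32 members were not called, and 4 members, Mmp3, Mmp7, Mmp13 and Mmp20, had too few reads to be tested. The differences were split evenly, with 21 above 0 and 21 below, and their median was -0.01, beside -0.04 over all genes tested. No member passed the FDR of 0.05 in the authors' deposited table, where 0.260% of all genes did. There the lowest FDR of a member was 0.0656, for Adamts14, and 16 of the 46 members had an unadjusted p below 0.05, 8 in each direction, beside 20.9% of all genes. With the spread of each gene moderated without a trend on level and without robust fitting, Adamts14 and Adamtsl5 were called higher and 0 members lower, beside 0.859% and 0.382% of all genes.

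**Figure D1:**
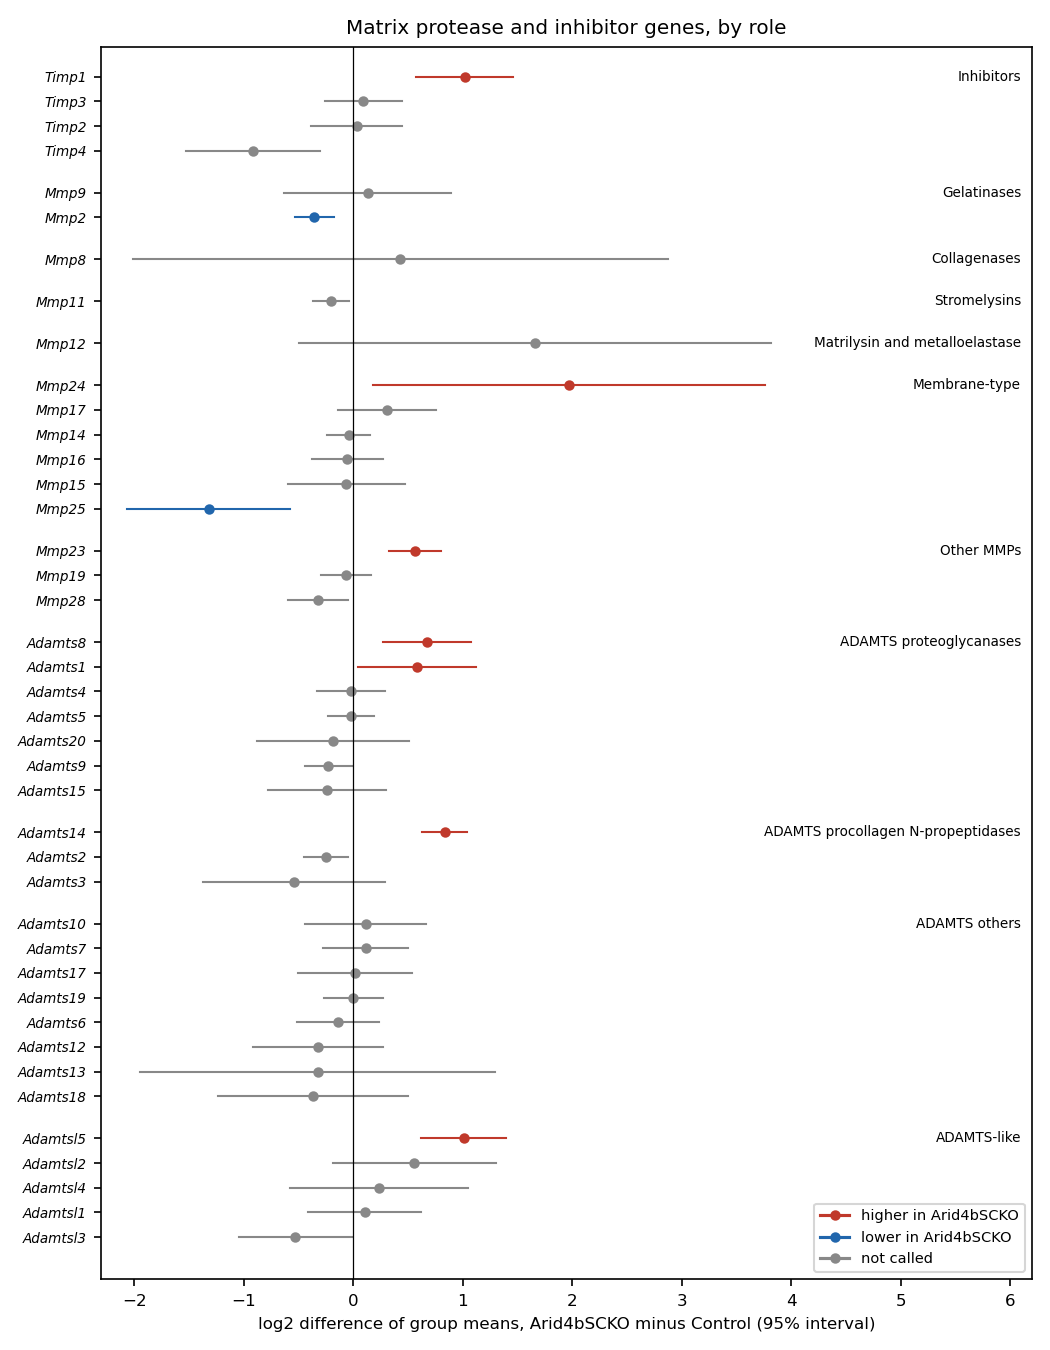
Each point is the log2 difference of a member (Arid4bSCKO minus Control, x axis) with its 95% interval, grouped by role, and its colour shows the call of the moderated test. The 41 tested members other than Mmp10 are drawn, since all Control libraries had 0 Mmp10 reads; Timp1, at 1.02, stands apart from the other 3 inhibitors, and most points lie near 0.

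In 9 members all 3 Arid4bSCKO libraries lay above all 3 Control libraries, beside 16.3% of the 16731 tested genes with worked-back reads. These were the 8 called higher and Adamtsl2. In 8 members all 3 lay below (18.3% of genes), namely Mmp2, Mmp25, Adamts2, Adamts9, Mmp11, Adamtsl3, Timp4 and Mmp28. The groups overlapped in the other 25.

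**Figure D2:**
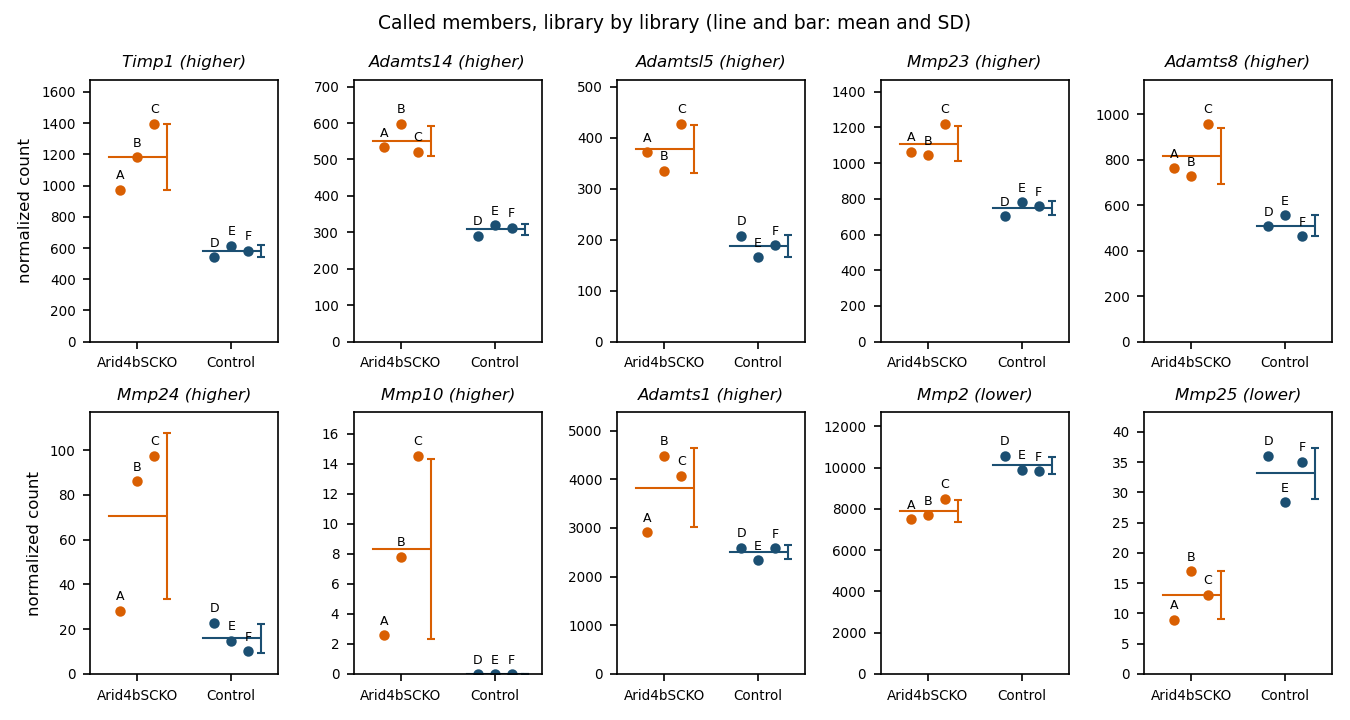
Normalized counts of the 10 called members (y axis, from 0) in each library, with Arid4bSCKO left of Control; letters name the libraries, horizontal lines are group means and bars are SDs. In every panel the groups are apart, by a wide margin for Adamts14 and by little for Mmp24 and Adamts1, where library A is close to the Control libraries.

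Among the inhibitors, Timp1 rose and the other 3 were not called. TIMP1 is a secreted inhibitor of most soluble MMPs that also acts as a growth factor, and its gene is commonly induced in injured or inflamed tissue. Timp1 (chrX:20870166-20874735, plus strand) had 974, 1181 and 1397 normalized counts in A, B and C, against 539, 615 and 581 in D, E and F. The lowest Arid4bSCKO library was above the highest Control library, and the means were 1184 ± 211 and 578 ± 37.8 (SD, n = 3 each). The log2 difference was 1.02 (95% interval 0.58 to 1.46, limma adjusted p = 0.000743), which is 2.03-fold. It had a p of 0.00309, with FDR 0.102, in the authors' deposited table. In a bulk sample such as a whole testis, more cells that make an RNA and more RNA per cell cannot be told apart, here and in all that follows.

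TIMP2, which also takes part in the activation of MMP2 at the cell surface, had 5093, 6378 and 7177 normalized counts in A, B and C, against 6091, 6245 and 5717 in D, E and F. Its difference was 0.03 (-0.38 to 0.45, limma adjusted p = 0.884), and the groups overlapped. Timp3, whose product is held in the matrix and inhibits ADAM and ADAMTS proteases as well as MMPs, had 6362, 8484 and 6940 against 7002, 6578 and 6707 in Control. Its difference was 0.09 (-0.26 to 0.44, limma adjusted p = 0.606). Timp4 was read 5, 5 and 7 times in A, B and C, against 11, 14 and 12 times in D, E and F. All its Arid4bSCKO values were lower, but the difference of -0.91 (-1.53 to -0.30) had a limma adjusted p of 0.149. The deposited p-values were 0.834 for Timp2, 0.502 for Timp3 and 0.0143 for Timp4 in the authors' deposited table, with FDRs of 0.921, 0.690 and 0.147.

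Timp1, Timp3 and Timp4 lie inside synapsin genes on the opposite strand, and whether the counting used strand is not given in the sources used here. Timp3 shares 1733 exonic bases with Syn3, which had 134, 133 and 109 normalized counts in A, B and C, against 208, 187 and 175 in D, E and F, and was called lower (log2 difference -0.60, limma adjusted p = 0.0310). Timp4 shares 90 exonic bases with Syn2. Timp1 lies within Syn1 and shares 0 exonic bases with it.

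Per kilobase of transcript, the level of Timp1 in Arid4bSCKO testes was 1327 normalized counts, nearer to Timp3 (1527) and Timp2 (1659) than in Control testes, where Timp1 had 654, Timp3 1432 and Timp2 1621. These are group log2 means turned back to counts. Mmp2 was the member with the highest level per kilobase in both groups, with 2562 in Arid4bSCKO and 3280 in Control testes. Mmp11 followed with 1962 and 2256, and Mmp14 with 1881 and 1933.

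**Figure D3:**
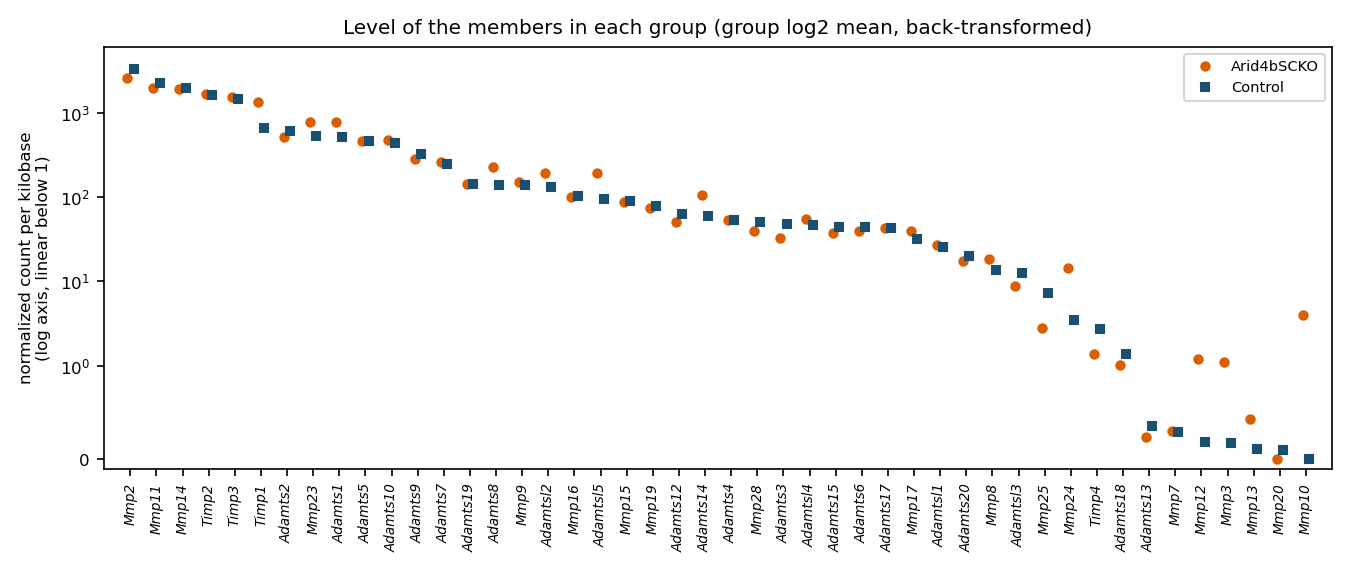
Level of each of the 46 members per kilobase of transcript (y axis, log scale, linear below 1) in Arid4bSCKO (circles) and Control (squares), ordered by the Control level. The 6 members highest in Control are Mmp2, Mmp11, Mmp14 and 3 of the 4 TIMPs, and among the called members the widest gaps between the symbols are at the low end, in Mmp10, Mmp24 and Mmp25.

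Of the gelatinases, which cut denatured collagen and the type IV collagen of basement membranes, Mmp2 fell and Mmp9 was not called. Mmp2 (chr8:92827291-92853420, plus strand) had 7497, 7696 and 8499 normalized counts in A, B and C, against 10567, 9905 and 9833 in D, E and F. Every Arid4bSCKO library was below every Control library. The log2 difference was -0.36 (-0.53 to -0.18, limma adjusted p = 0.0163), so that Arid4bSCKO testes had 78.1% of the Control level. The authors' deposited table gives it a p of 0.00515 and an FDR of 0.113. The call was lost without library D (limma adjusted p = 0.0512), when the difference was -0.32. Mmp9, an enzyme stored by neutrophils and made by osteoclasts and macrophages, had 478, 443 and 529 normalized counts in A, B and C, against 504, 305 and 553 in D, E and F, with no separation of the groups (limma adjusted p = 0.711).

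The membrane-type MMPs are anchored at the cell surface, and of the 6 members 1 rose, 1 fell and 4 were not called. Mmp14 encodes MT1-MMP, the surface protease that activates MMP2 in a complex with TIMP2. It had 5629, 6602 and 6084 normalized counts in A, B and C, against 6450, 6097 and 6237 in D, E and F, a difference of -0.04 (-0.23 to 0.16, limma adjusted p = 0.805). In the authors' deposited table its p was 0.609 and its FDR 0.772. Mmp15, Mmp16 and Mmp17 were not called either, with differences of -0.06, -0.05 and 0.31.

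Mmp24 (chr2:155775342-155818366, plus strand), known mainly from neurons, was rare in Control testes. It was read 22, 66 and 67 times in A, B and C, against 19, 12 and 8 times in D, E and F. Libraries B and C were high, and A was barely above D. The log2 difference was 1.97 (0.19 to 3.76, limma adjusted p = 0.0179), and the call was lost without B (0.0503), without C (0.0602) or without F (0.0537, all limma adjusted p). It had a p of 0.0375, with FDR 0.210, in the authors' deposited table. The gene shares 637 exonic bases with BC029722 on the other strand. That gene had 453, 531 and 624 normalized counts in A, B and C, against 360, 401 and 412 in D, E and F, and was itself called higher (log2 difference 0.44, limma adjusted p = 0.0446). Without knowing the use of strand, reads of the shared bases cannot be assigned to one or the other.

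Mmp25 (chr17:23628311-23645277, minus strand), whose product is tied to the surface by a lipid anchor and is best known from leukocytes, was read 7, 13 and 9 times in A, B and C, against 30, 23 and 28 times in D, E and F. No Arid4bSCKO library reached the lowest Control library. The log2 difference was -1.32 (-2.07 to -0.57, limma adjusted p = 0.0252), and the call was lost without D, E or F, at limma adjusted p-values of 0.0945, 0.0511 and 0.0677. The authors' deposited table gives it a p of 0.00795 and an FDR of 0.126.

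Mmp23 (chr4:155650655-155653384, minus strand), a short MMP with no hemopexin domain, rose. It had 1064, 1043 and 1221 normalized counts in A, B and C, against 702, 782 and 758 in D, E and F. The lowest Arid4bSCKO value was well above the highest Control value, and the log2 difference was 0.57 (0.33 to 0.80, limma adjusted p = 0.00375). In the authors' deposited table its p was 0.00261 and its FDR 0.0982. The other tested members of this class, Mmp19 and Mmp28, were not called, with differences of -0.07 and -0.32. Mmp28 had 149, 137 and 127 normalized counts in A, B and C, against 175, 155 and 184 in D, E and F, so its groups did not overlap, at a limma adjusted p of 0.205.

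The stromelysins MMP3 and MMP10 cut proteoglycans, laminin and fibronectin, and Mmp11 is placed with them by name. Of these 3 members Mmp10 (chr9:7502352-7510240, plus strand) was called higher. It was read 2, 6 and 10 times in A, B and C, against 0, 0 and 0 times in D, E and F. Against an assumed floor of 3 reads over the Control libraries the observed level was 6.76-fold higher. This ratio leaves out the spread and counting error of the Arid4bSCKO reads, so it is not a lower limit. The limma adjusted p of Mmp10 was 0.0190. The gene had a p of 0.00859, with FDR 0.130, in the authors' deposited table. The gene passed the minimum level through its Arid4bSCKO reads alone, and its call was lost without library C (limma adjusted p = 0.0891). Mmp3, the closest relative, was read 8, 1 and 0 times in A, B and C, against 0, 1 and 0 times in D, E and F, and was below the minimum level. Mmp11, an abundant member made by stromal cells, had 4787, 4439 and 4256 normalized counts in A, B and C, against 5286, 4926 and 5283 in D, E and F. All 3 Arid4bSCKO values were lower, and the difference of -0.20 (-0.37 to -0.03) had a limma adjusted p of 0.120. On the worked-back values the limma adjusted p of Mmp11 was 0.0936 with all libraries and 0.0453 without library A. In the authors' deposited table the p of Mmp11 was 0.0284 and its FDR 0.185. It shares 155 exonic bases with Chchd10 on the other strand, which was called higher (log2 difference 0.41, limma adjusted p = 0.0129).

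Mmp10 and Mmp3 lie with Mmp7, Mmp8, Mmp12, Mmp13 and Mmp20 in a cluster of 7 members on chromosome 9, all on the plus strand within 427 kb of mm10. The 7 members together had 163 reads over the Arid4bSCKO libraries and 102 over the Control libraries, most of them from Mmp8. The other 6 had 45 and 7 reads, of which Mmp10 gave 18 and 0, and library A alone gave 8 reads of Mmp3 and 7 of Mmp13. Mmp12, the metalloelastase of macrophages, was read 4, 4 and 2 times in A, B and C, against 0, 3 and 0 times in D, E and F (limma adjusted p = 0.171; p = 0.0988 and FDR 0.333 in the authors' deposited table). Mmp13, a collagenase of bone and cartilage, was read 7, 0 and 0 times against 1, 0 and 0 times in Control, all but 1 of the reads coming from library A. Mmp7, an epithelial matrilysin, had 1 read in each group, and Mmp20, the protease of tooth enamel, had 0 against 1.

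The promoters of these genes are shown because a short motif is shared within the cluster and Mmp10 is the only called member in it. The motif is TGANTCA, where N is any base, a search pattern for the binding sequence of AP-1 (dimers of FOS, JUN and related factors). It was searched on both strands from 250 bases before to 50 bases after each RefSeq start. It was found in 6 of the 7 cluster members and in 0 of the 25 other members with a promoter in RefSeq. A member counts where any of its listed promoters has a match. The share was 7.81% of 32851 mouse promoters, or 7.49% counted by gene over the 14729 genes in the table with a promoter. The sequences below are from RefSeq, build GRCm38.p6, plus strand, read 5′ to 3′ up to the base before the start, 250 bases for Mmp10 and 100 for the others. Capitals mark TGANTCA and the TATA box (TATAAA).
Mmp10 (chr9:7502092-7502341): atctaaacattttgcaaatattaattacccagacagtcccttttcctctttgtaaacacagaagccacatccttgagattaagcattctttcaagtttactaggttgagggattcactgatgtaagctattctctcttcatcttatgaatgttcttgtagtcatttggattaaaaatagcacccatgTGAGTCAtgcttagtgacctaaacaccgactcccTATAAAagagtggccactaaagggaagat
Mmp3 (chr9:7445722-7445821): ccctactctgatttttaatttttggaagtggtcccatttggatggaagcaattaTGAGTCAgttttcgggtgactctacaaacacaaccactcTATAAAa
Mmp13 (chr9:7272414-7272513): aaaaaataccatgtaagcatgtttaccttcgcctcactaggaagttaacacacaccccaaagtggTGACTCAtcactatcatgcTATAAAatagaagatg
Mmp7 (chr9:7691990-7692089): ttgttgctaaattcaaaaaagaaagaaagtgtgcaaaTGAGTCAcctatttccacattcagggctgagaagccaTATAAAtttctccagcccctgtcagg
Mmp20 (chr9:7628131-7628230): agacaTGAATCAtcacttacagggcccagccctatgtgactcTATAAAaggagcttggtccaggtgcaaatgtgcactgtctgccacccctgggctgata
Mmp12 (chr9:7347274-7347373): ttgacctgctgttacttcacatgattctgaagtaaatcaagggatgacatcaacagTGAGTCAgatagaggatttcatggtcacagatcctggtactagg
Mmp8 (chr9:7558329-7558428): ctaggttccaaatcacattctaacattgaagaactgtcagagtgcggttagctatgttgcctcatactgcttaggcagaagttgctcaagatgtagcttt

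The TGANTCA match began 63 bases before the start in Mmp10 and Mmp7, 46 in Mmp3, 44 in Mmp12, 35 in Mmp13 and 95 in Mmp20. It reads TGAATCA in Mmp20, TGACTCA in Mmp13 and TGAGTCA in the others, so not every match has the same letters. RefSeq lists 2 starts for Mmp12. Its match lies before the downstream start, inside the gene, and the stretch before the upstream start holds no match. For Mmp7, which also has 2 listed starts, the stretch before the upstream start is printed. A TATAAA match was found in all 7 cluster members and in 2 of the 25 others, Adamts1 and Adamtsl2. The share was 13.6% of all promoters, or 11.4% counted by gene over the genes in the table with a promoter. It lies outside the printed stretches in Mmp8, where it overlaps the start, and in Mmp12, where it begins at base 5 after the start, and so is not in capitals there. These matches are letters in a window and say nothing of binding in the testis.

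Of the called members outside the cluster, Timp1 has the promoter below, with the ETS motif AGGAAG and the GC box (GGGCGG, or CCGCCC as read here) in capitals and no TGANTCA match in the window. AGGAAG was found in 35.4% of all promoters and GGGCGG in 35.7%. Counted by gene, over the genes in the table with a promoter, the shares were 38.1% and 56.4%. Of the 32 members with a promoter, 12 had AGGAAG and 22 had GGGCGG.
Timp1 (chrX:20869916-20870165): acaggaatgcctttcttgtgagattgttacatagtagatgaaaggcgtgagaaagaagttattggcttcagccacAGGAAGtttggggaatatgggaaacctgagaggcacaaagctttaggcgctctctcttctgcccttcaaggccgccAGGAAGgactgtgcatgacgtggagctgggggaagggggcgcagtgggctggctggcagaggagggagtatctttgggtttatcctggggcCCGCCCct

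Mmp8, the neutrophil collagenase, was the member of the cluster with the most reads. It was read 21, 23 and 74 times in A, B and C, against 13, 25 and 57 times in D, E and F. Libraries C and F were high in both groups, and the difference of 0.43 had an interval from -2.01 to 2.87 (limma adjusted p = 0.723; p = 0.650 and FDR 0.801 in the authors' deposited table). Of the neutrophil markers matched, S100a8, S100a9, Ngp, Ltf and Camp were highest in the same 2 libraries. Not all did so. The granule genes Mpo and Elane had few reads, and Mpo was highest in A and E, and Elane in C and E. Ngp, which encodes neutrophilic granule protein, had 104, 40.4 and 642 normalized counts in A, B and C, against 46.8, 91.1 and 365 in D, E and F. The summed level of the 9 neutrophil markers matched was 1027, 638 and 4795 in A, B and C, against 648, 789 and 2118 in D, E and F, and 0 of the 9 were called; their part in the Mmp8 values was not tested.

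**Figure D4:**
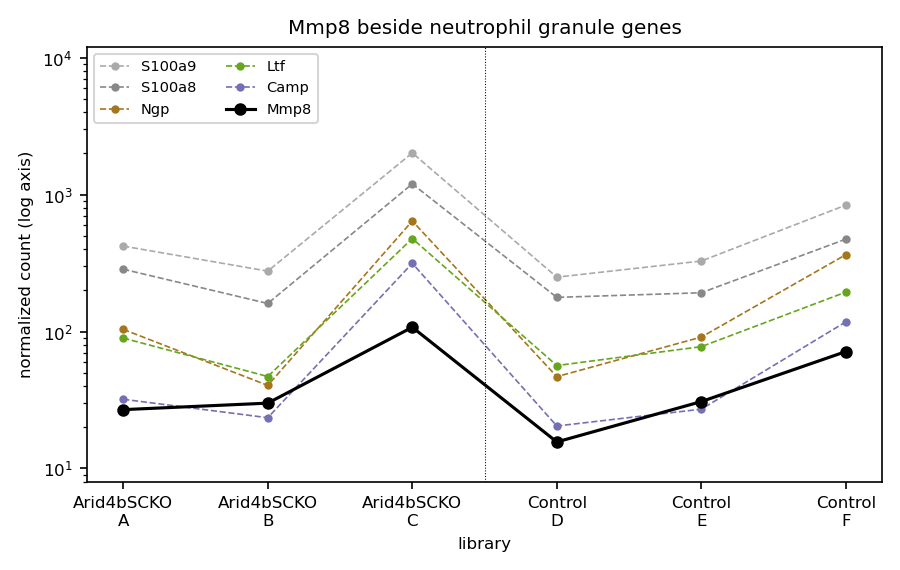
Normalized counts (y axis, log scale) of Mmp8 (black) and 5 neutrophil markers in each library, with the Arid4bSCKO libraries left of the Control libraries. The markers drawn are S100a9, S100a8, Ngp, Ltf and Camp, and the rest of the list, Mpo and Elane among them, is not drawn. All 6 genes are highest in library C among Arid4bSCKO and in library F among Control.

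The ADAMTS proteoglycanases cut aggrecan, versican and related proteoglycans, and 2 of the 7 rose. Adamts8 (chr9:30942562-30963838, plus strand) had 763, 729 and 959 normalized counts in A, B and C, against 509, 555 and 464 in D, E and F. The groups were apart, with a log2 difference of 0.67 (0.28 to 1.07, limma adjusted p = 0.00542). The authors' deposited table gives it a p of 0.00937 and an FDR of 0.131. It shares 489 exonic bases with the antisense gene Gm29724, not used here.

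Adamts1 (chr16:85793827-85803113, minus strand), required for ovulation and for normal growth in mice, had 2913, 4481 and 4074 normalized counts in A, B and C, against 2597, 2342 and 2589 in D, E and F. Libraries B and C were high, and A was nearest to the Control libraries. The log2 difference was 0.58 (0.04 to 1.13, limma adjusted p = 0.0201), and the call was lost without C, D or E, at limma adjusted p-values of 0.0640, 0.0509 and 0.0616. In the authors' deposited table its p was 0.0397 and its FDR 0.215.

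Adamts5, the main aggrecanase of mouse cartilage and the member of this class with the highest level, had 4626, 5253 and 4958 normalized counts in A, B and C, against 5168, 4635 and 5243 in D, E and F. The difference was -0.02 (-0.23 to 0.19, limma adjusted p = 0.911), and the p of 0.808 and FDR of 0.906 are those of the authors' deposited table. Adamts9 had 2300, 2334 and 2073 against 2573, 2469 and 2803 in Control, all 3 Arid4bSCKO values lower, at a difference of -0.23 and a limma adjusted p of 0.103. Adamts4, Adamts15 and Adamts20 were not called, with differences between -0.24 and -0.02.

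The N-propeptidases remove the amino-terminal propeptide of fibrillar procollagens, and the 3 members did not go one way. Adamts14 (chr10:61197112-61273438, minus strand) had 534, 598 and 522 normalized counts in A, B and C, against 291, 320 and 313 in D, E and F. The means were 551 ± 41.2 and 308 ± 15.5 (SD, n = 3 each), a log2 difference of 0.84 (0.63 to 1.04, limma adjusted p = 0.00106). In the authors' deposited table its p was 0.000353. Adamts2, the most abundant of the 3, had 3507, 4025 and 3721 normalized counts in A, B and C, against 4566, 4185 and 4615 in D, E and F. Its groups did not overlap, but the difference of -0.25 (-0.45 to -0.05) just missed the threshold at a limma adjusted p of 0.0711. On the worked-back values the limma adjusted p was 0.0560 with all libraries and 0.0209 without library B. In the authors' deposited table the p of Adamts2 was 0.0268 and its FDR 0.182. Adamts3 had 124, 134 and 131 against 193, 267 and 130, with an overlap at library F and a limma adjusted p of 0.144. Adamts14 and Adamts2 thus lay on opposite sides of 0, with intervals that do not overlap; the difference between them was not tested.

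Of the 5 ADAMTS-like genes, whose products bind fibrillin microfibrils and other matrix proteins, Adamtsl5 (chr10:80339110-80348412, minus strand) rose. It had 371, 335 and 427 normalized counts in A, B and C, against 208, 165 and 189 in D, E and F. The lowest Arid4bSCKO library was well above the highest Control library, and the log2 difference was 1.01 (0.62 to 1.40, limma adjusted p = 0.00151). It had a p of 0.00195, with FDR 0.0919, in the authors' deposited table. Adamtsl2 had 507, 962 and 709 normalized counts in A, B and C, against 473, 494 and 465 in D, E and F. Library A was close to the Control libraries, and the limma adjusted p was 0.0853 at a difference of 0.56 (-0.19 to 1.30). On the worked-back values the limma adjusted p was 0.0657 with all libraries, and 0.00108 without A at a difference of 0.79. In the authors' deposited table the p of Adamtsl2 was 0.106 and its FDR 0.344. Adamtsl1, Adamtsl3 and Adamtsl4 were not called, with differences of 0.11, -0.53 and 0.24.

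None of the other 8 ADAMTS genes was called, among them Adamts7, Adamts12 and Adamts19. Their limma adjusted p-values lay between 0.212, for Adamts12, and 0.992, for Adamts19. Adamts10, a protease tied to fibrillin microfibrils and the highest of these, had 2307, 1632 and 1924 normalized counts in A, B and C, against 1609, 2159 and 1638 in D, E and F. The groups overlapped, with a difference of 0.12 (-0.44 to 0.67), and its p was 0.590 and its FDR 0.759 in the authors' deposited table. Adamts13, the von Willebrand factor protease of the liver, was read 3 times over the Arid4bSCKO libraries and 4 times over the Control libraries.

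The proteases depend on activators and regulators, and 59 such genes and substrates were matched in the table. Of these 12 were called higher and 3 lower by the limma moderated test, beside 7.37% and 6.46% of all genes tested. Plasmin, released from plasminogen by its activators, can activate MMP precursors, and 4 of the 7 genes of the plasminogen axis described here rose. Plat, the tissue-type activator, had 1766, 1965 and 2592 normalized counts in A, B and C, against 850, 889 and 1020 in D, E and F (log2 difference 1.18). Plaur, the urokinase receptor, had 141, 237 and 273 in A, B and C, against 48.0, 60.3 and 63.9 in D, E and F (1.86). Serpine2 and Serpinb2, which inhibit plasminogen activators, rose beside them. Serpine2 had 15898, 17083 and 17480 normalized counts in A, B and C, against 8782, 7887 and 7893 in D, E and F, and it was the only gene of these lists with an FDR below 0.05 in the authors' deposited table (0.0415). Serpinb2 differed by 2.88. Plau, the urokinase itself, had 246, 377 and 342 against 225, 202 and 226 and was just outside the threshold at a limma adjusted p of 0.0501.

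The proprotein convertases cut the propeptides of membrane-type MMPs, ADAMTS proteases and other precursors, and 3 of the 4 changed. Furin had 3324, 4756 and 3827 normalized counts in A, B and C, against 2099, 2083 and 2262 in D, E and F (log2 difference 0.87), and Pcsk5 rose by 0.28. Pcsk6 fell, with 506, 571 and 560 in A, B and C, against 947, 1043 and 1231 in D, E and F (-0.97). Of the 7 regulators, Cd44, a hyaluronan receptor that holds MMPs at the surface, and Sdc4 rose by 1.41 and 0.87, while Reck, an anchored MMP inhibitor, was not called (-0.15). Among the lecticans and link proteins, Acan (aggrecan) and Bcan (brevican), both substrates of the proteoglycanases, fell by 1.08 and 0.77 on the log2 scale, and the other 5 were not called, versican among them at 0.00. Pofut2, which puts O-fucose on thrombospondin repeats, rose by 0.33, and Ltbp1 rose by 1.84 as the only called gene of 11 fibrillins and other substrates. Ctsd and Ctss rose among 5 cathepsins, by 0.34 and 0.83, and 0 of 8 ADAM sheddases and 0 of 7 astacins and procollagen processing genes were called.

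**Figure D5:**
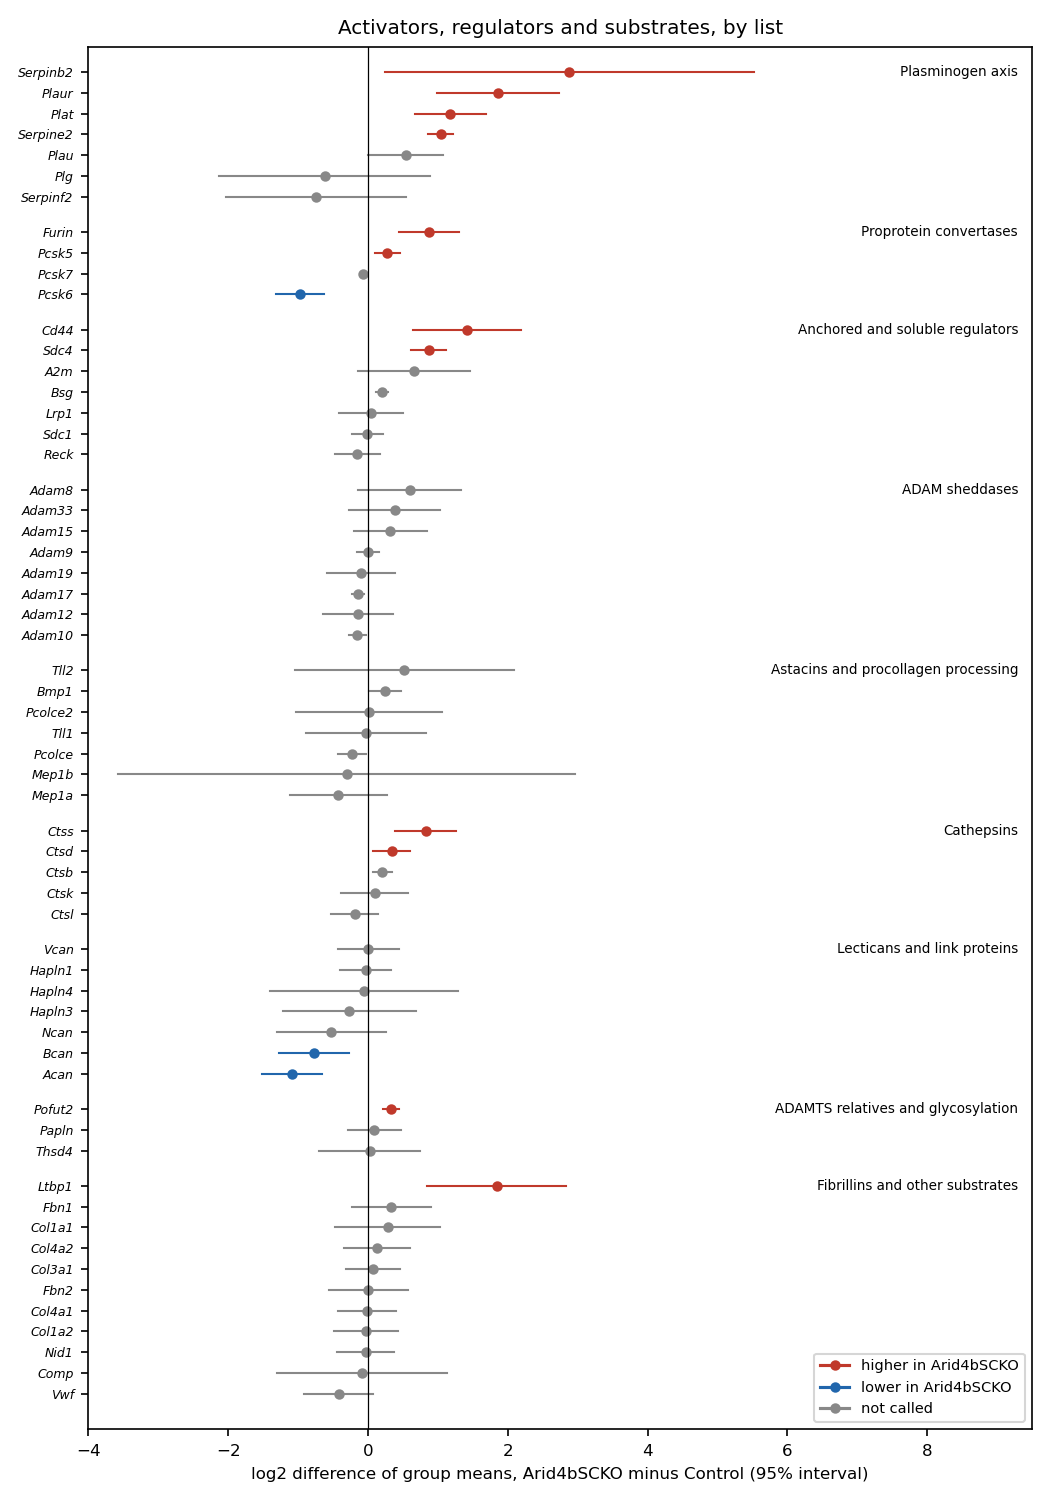
Log2 difference (Arid4bSCKO minus Control, x axis) with its 95% interval for 59 activators, regulators and substrates, grouped by list and coloured by the call of the moderated test. Of the plasminogen axis 4 of 7 genes are coloured as called and of the convertases 3 of 4, and no ADAM sheddase or astacin is.

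Markers of some other cell types differed between the groups. The counts of calls below stand beside 7.37% of all genes tested called higher and 6.46% called lower. All 10 macrophage markers were called higher, and the summed level of the 9 with worked-back reads was 3362, 4712 and 4254 normalized counts in A, B and C, against 2213, 2090 and 2368 in D, E and F. Of 5 mast cell markers 4 were called higher, with sums over the 4 worked-back markers of 885, 940 and 1621, against 379, 429 and 518. Of 8 Sertoli markers Cldn11 and Krt18 were called higher and Dhh and Gata4 lower, and the sum of their back-transformed group log2 means was 27223 normalized counts in Arid4bSCKO and 47686 in Control testes. Most of that gap was Amh, at 32.4% of the Control level, which was not called (log2 difference -1.62, limma adjusted p = 0.111). Of 6 germ cell markers Dppa4 was called lower and 5 had a difference below 0, with sums of the same kind of 6111 in Arid4bSCKO and 8097 in Control testes. In other lists 1 stromal (of 6) and 1 myoid marker (of 5) were called higher, while 0 of 6 endothelial, 0 of 6 fetal Leydig and 0 of 3 erythroid markers were called. Acan was the only called gene, lower, of 4 tested chondrocyte and bone markers. The part of these cells in the differences of Timp1, Adamts1 and the other members was not tested.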

How the data were processed

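RNA of whole testes was read as TruSeq Stranded mRNA libraries, 50 bases from both ends, per the labels' protocols; the submitters' processing notes list STAR 2.4 and mm10. How reads were counted and scaled, with or without strand and on which annotation, is not given in the sources used here. Deposited by the authors was 1 table that holds, per the file headers, group means of log2(normalized count + 1), a log2 ratio of group medians, an unadjusted p-value and an FDR for 22320 genes, with no column per library. One gene of the lists is not reported here. The members, lists and tests were chosen with earlier results of these data known.

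Reads per library were worked back with numpy 2.4.6 and scipy 1.17.1 from the means, the ratio of medians and the p-value together, given the worth of 1 read (1.20 to 1.45 normalized counts). Exactly 1 solution was found for 19153 genes, and recomputed p-values of the members differed from the deposited ones by a relative 8.45e-07 at most. With the worths shifted, 0 of 1600 genes had a solution, against 1396 of the same 1600 with the true worths. Depth was about 17.5 M reads per library in Arid4bSCKO and 18.6 M in Control. The main test does not use these reads: limma 3.58.1 (R 4.3.3) moderated the variance implied by the deposited p-value (4 residual degrees of freedom, trend on level, robust) over 19095 genes whose mean level was 1 or more, leaving out 529 rows that look filled in. The procedures were tested on simulated data. Intervals are ordinary 95% intervals from the deposited p-value, so a gene called after moderation can have an interval that spans 0. Since 1 was added before taking logs, folds understate the change of genes with few reads. Lengths and exon overlaps are from GENCODE on mm10, matched by symbol for all 46 members. Alternatives were other minimum levels, centrings, a length correction, other moderation, the deposited p-values readjusted, each library left out, and, chosen after seeing the data, limma and limma voom on the worked-back values. The fits with a library left out were also limma fits of the worked-back values.

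The members described in full were all those called, the 4 TIMPs and the member with the highest level in each role class; members with an adjusted p of 0.05 to 0.1 were given as just outside. The AP-1 factors, the overlapping genes and other members were named after their values were seen.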

Additional observations from a re-analysis of the deposited data

How the results depend on the processing

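Both counts of called members held at 8 higher and 2 lower when differences were centred on the median of all genes or on a trend over level, when the trend over transcript length was removed, without robust fitting, with no minimum level, and in limma and limma voom fits of the worked-back values, which were chosen after seeing the data; a minimum level of 3 gave 7 and 2. Without trend and robust fitting 2 were higher and 0 lower, beside 0.859% and 0.382% of all genes. With the deposited p-values readjusted over the genes tested 0 were called in either direction, and 16 members had an unadjusted deposited p below 0.05. Leaving out 1 library at a time, in limma fits of the worked-back values, gave 5 to 9 higher and 0 to 4 lower. The lowest counts came without library C (5 higher) and without D (0 lower), the highest without A (9 higher) and without B (4 lower). Timp1, Adamts14, Adamtsl5, Mmp23 and Adamts8 were called without any 1 library, and the other 5 called members were each lost without at least 1, as given beside their values. The median difference of the members was -0.01, and 0.11 with the length trend removed and 0.03 after centring; longer transcripts tended to lower differences over all genes (Spearman's rho -0.22, 17754 genes, a description). No paired analysis was possible because the worked-back libraries carry no replicate number. With few reads, Mmp10, Mmp12, Mmp25 and Timp4 are limited by counting error, and depth and group were scaled by a worth of 1 read that differed between the groups.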

Other observations

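A set of 8 genes of AP-1 factors was picked by hand after the promoter matches and the values had been seen, so its count of calls supports nothing; over all genes tested 7.37% were called higher. Atf3 had 502, 934 and 1032 normalized counts in libraries A, B and C, against 62.4, 71.4 and 47.6 in D, E and F (log2 difference 3.70). Junb had 371, 632 and 786 in A, B and C, against 84.1, 134 and 96.5 in D, E and F (2.46). Jun, Jund, Fosb and Fosl1 were also called higher by the limma moderated test, with differences of 0.70, 0.56, 2.07 and 2.06. Fos, at 145, 465 and 347 in A, B and C, against 106, 138 and 119 in D, E and F, was not called (limma adjusted p = 0.0822), and neither was Fosl2 (0.493).

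Mast cell proteases rose beside the members. Cma1, a chymase, had 236, 291 and 510 normalized counts in A, B and C, against 101, 129 and 133 in D, E and F. Tpsb2, a tryptase, had 274, 310 and 475 in A, B and C, against 130, 138 and 163 in D, E and F. Cpa3 and Mcpt4 were called higher as well, with log2 differences of 1.31 and 1.27.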
